A study of Homo sapiens with 9 samples.

Results

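YAP1 and WWTR1, the gene of TAZ, encode the transcription coactivators at the end of the Hippo pathway, and TEAD1, TEAD2, TEAD3 and TEAD4 encode the DNA-binding factors through which they act. These 6 genes were described together with LATS2, AMOTL2, ANKRD1 and AXL, which are widely used as readouts of YAP and TAZ activity. Each symbol matched a single row among the 60603 genes of the table, and all 10 were among the 16093 genes that passed the filter on low counts. TC32, an established cell line from Ewing sarcoma that carries the EWS::FLI1 fusion and is labelled as wild type, was grown in medium with 10% FBS and L-glutamine. The siEF cells were plated on an siRNA spanning the fusion breakpoint for 30 h, and the siNEG cells on a nonspecific siRNA for the same time. The Media cells, also labelled 30 h, are named for medium alone. Each group held 3 libraries labelled as biological replicates of this single line. The comparison of siEF with siNEG asks which transcripts change when the fusion is silenced, and that of siNEG with Media asks how cells with a nonspecific siRNA differ from cells in medium.

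The Hippo pathway is a kinase cascade that restrains growth. MST kinases activate LATS1 and LATS2, which phosphorylate YAP and TAZ, and the phosphorylated coactivators are held in the cytoplasm or degraded. When the kinases are quiet, YAP and TAZ enter the nucleus and bind TEAD factors at the motif GGAATG, and genes of cell shape, matrix and adhesion are transcribed. LATS2 and AMOTL2 are both targets and inhibitors of YAP, so that the pathway holds its own feedback. RNA levels do not show where the proteins were located or whether they were phosphorylated.

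The promoters of the targets are shown here because the motif that TEAD factors bind can be read in them. RefSeq promoters on GRCh38.p14 were found for 8 of the 10 genes, and TEAD1 and TEAD4 had no entry. In the 250 bases before each start, GGAATG or its reverse complement CATTCC was searched. Its first letters are GGAA, the core bound by ETS factors such as FLI1. The motif is in capitals, and each sequence runs 5′ to 3′ on the strand of its gene.
ANKRD1, chr10:90921088-90921337, minus strand: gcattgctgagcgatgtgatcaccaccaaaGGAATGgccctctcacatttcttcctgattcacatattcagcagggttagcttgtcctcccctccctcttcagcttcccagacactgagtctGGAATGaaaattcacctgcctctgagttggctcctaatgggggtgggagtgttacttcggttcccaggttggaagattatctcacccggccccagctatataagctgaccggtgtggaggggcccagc
AMOTL2, second start, chr3:134374448-134374697, minus strand: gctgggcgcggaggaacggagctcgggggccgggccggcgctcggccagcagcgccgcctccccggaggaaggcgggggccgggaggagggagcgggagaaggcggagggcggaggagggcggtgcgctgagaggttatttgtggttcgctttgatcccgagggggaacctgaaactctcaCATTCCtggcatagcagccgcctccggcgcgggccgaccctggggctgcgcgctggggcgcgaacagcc
YAP1, chr11:102110197-102110446, plus strand: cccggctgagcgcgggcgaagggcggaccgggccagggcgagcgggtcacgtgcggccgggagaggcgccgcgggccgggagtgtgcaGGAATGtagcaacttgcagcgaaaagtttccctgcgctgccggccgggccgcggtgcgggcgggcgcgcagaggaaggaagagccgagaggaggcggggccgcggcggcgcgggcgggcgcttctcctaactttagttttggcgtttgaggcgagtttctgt
AXL, second start, chr19:41226505-41226754, plus strand: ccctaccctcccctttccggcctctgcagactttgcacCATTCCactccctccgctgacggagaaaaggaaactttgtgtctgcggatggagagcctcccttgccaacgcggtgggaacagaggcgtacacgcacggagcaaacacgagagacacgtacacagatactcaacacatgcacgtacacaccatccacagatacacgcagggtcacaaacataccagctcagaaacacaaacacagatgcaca

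ANKRD1 held the motif at 2 places, which begin 220 and 128 bases before the start. YAP1 held it at 1 place, 162 bases before its start. AMOTL2 held CATTCC 69 bases before the second of its 2 annotated starts, and AXL held it 212 bases before the second of its 2. WWTR1, TEAD2, TEAD3 and LATS2 had no match in the windows given. So 4 of the 8 genes held a match, whereas 3902 of 27305 genes in the RefSeq table (14.3%) and 11.9% of all 35116 windows of this length did. Of the 22 genes of a YAP and TAZ target list described below, 16 were in the RefSeq table and 8 of these held a match. CCN2 held 3 matches, and IGFBP3, CCDC80 and RBMS3 held none. The GGAA repeat GGAAGGAA or its complement TTCCTTCC was present in YAP1 alone among the 8 genes. Across the RefSeq table, it was present in 1028 of 27305 genes (3.76%) and in 3.06% of windows. These are matches of letters and not sites of measured binding.

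The libraries held between 20727706 and 33134581 expected counts, and the shallowest was siEF replicate 2. FLI1, the partner that supplies the DNA-binding part of the fusion, was at 37.8 ± 2.002 CPM in siEF and 48.4 ± 0.315 CPM in siNEG (SD, n = 3 each), or 78.2% of siNEG (Log2FC -0.35, adjusted P = 2.88e-05). In Media FLI1 was at 57.9 ± 1.65 CPM, above siNEG (adjusted P = 0.00347). NR0B1, a target that the fusion induces, was at 17.6 ± 2.345 CPM in siEF and 137 ± 4.975 in siNEG (Log2FC -2.97, edgeR, adjusted P = 7.00e-15). PHLDA1, a target that the fusion represses, was at 119.5 ± 7.25 CPM in siEF and 3.19 ± 0.111 in siNEG (Log2FC 5.23, edgeR, adjusted P = 4.01e-17). The methods also describe a check of the silencing by qPCR. All 7 markers of Ewing sarcoma cells reached 1 CPM in every group, with a sum between 472 and 494 CPM per library in siEF, 2536 and 2663 in siNEG, and 2753 and 2853 in Media. Most of the siNEG sum was CCND1, at 1868 CPM in siNEG and 95.4 in siEF, and the other 6 markers summed to 381 to 391 CPM in siEF, 747 to 761 in siNEG and 869 to 909 in Media. CD99, a surface marker of these cells, was higher in siEF than in siNEG (189 against 161 CPM, adjusted P = 0.00123) but not than in Media. There it was at 204 CPM, and the Log2FC of siEF against Media was -0.11 (edgeR, adjusted P = 0.0815). For CD99, siNEG was also below Media (adjusted P = 3.63e-04). STEAP1, another surface marker, was at 8.62 CPM in siEF, 41.8 in siNEG and 50.4 in Media. Of 7 markers of blood, endothelial and epithelial cells, 2 reached 1 CPM in each group, with sums of 9.40 to 11.02 CPM in siEF, 4.45 to 7.55 in siNEG and 6.27 to 7.09 in Media. These were mainly CD68, at 6.66 CPM in siEF and 1.66 in siNEG, and PECAM1, at 1.60 CPM in siEF and 3.69 in siNEG, while PTPRC and CD3E had 0 counts in every siEF library. CDH5, like PECAM1 an endothelial marker, was at 0.66 CPM in siEF and 0.21 in siNEG. The epithelial markers CDH1 (0.91 against 0 CPM, edgeR, adjusted P = 9.47e-07) and EPCAM (0.41 against 0.04 CPM, adjusted P = 5.65e-04) were higher in siEF. In Media, CDH1 was at 0.08 CPM and EPCAM at 0.40. Mitochondrial transcripts took 3.16% to 4.55% of counts in siEF, 1.53% to 3.53% in siNEG and 1.65% to 3.17% in Media, and the 10 most abundant genes took 12.3% to 12.9% in siEF against 5.78% to 6.62% in the other libraries. The part of these differences in the results below was not tested. In bulk RNA, fewer cells of a kind and less RNA per cell cannot be told apart.

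When EWS::FLI1 was silenced, 8 of the 10 genes rose and 2 fell. Both coactivators, TEAD1, TEAD2, TEAD3, both inhibitors and ANKRD1 were higher in siEF than in siNEG, and TEAD4 and AXL were lower. All 10 had an adjusted P under 0.01 in edgeR's quasi-likelihood test, and no gene had overlapping libraries. Of all genes tested, 33.6% were higher and 31.7% lower at that threshold, and 76.9% had libraries that did not overlap. With a Log2FC beyond 1 also required, 3 of the 10 were called higher (ANKRD1, TEAD1 and TEAD3) and 2 lower (AXL and TEAD4), beside 17.1% and 11.7% of all genes. The median Log2FC was 0.64 over the 10 genes and 0.05 over all genes tested.

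**Figure D1:**
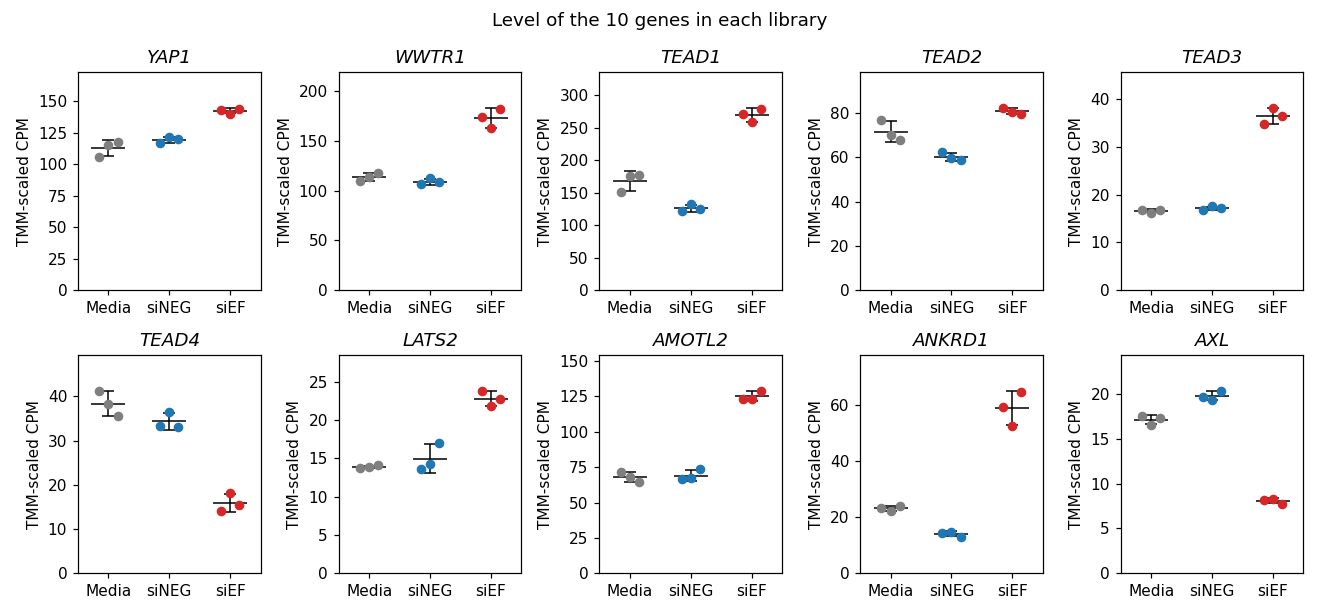
TMM-scaled CPM of the 10 genes in each library of Media, siNEG and siEF. Points are libraries, horizontal bars are means and error bars are SD (n = 3), and each vertical axis starts at 0. The siEF libraries lie apart from the siNEG libraries for every gene, below them for TEAD4 and AXL and above them for the other 8.

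YAP1 (ENSG00000137693.14, chromosome 11 from 102110447 to 102233424 on GRCh38) encodes the coactivator YAP. It was at 143, 140.0 and 144 CPM in siEF replicates 1, 2 and 3, and at 117, 121 and 120.1 CPM in the siNEG replicates. The 3 siEF libraries were all higher, by a small margin. The Log2FC was 0.25 (SE 0.05, 95% CI 0.15 to 0.35, adjusted P = 1.31e-04), the smallest in size of the 10, and equals a 1.19-fold level.

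WWTR1 (ENSG00000018408.14, chromosome 3 from 149517235 to 149736714) encodes TAZ, the paralog of YAP. It was at 174, 162 and 182 CPM in siEF and at 106, 112 and 109 CPM in siNEG. The lowest siEF library stood well above the highest siNEG library. The Log2FC was 0.66 (SE 0.05, adjusted P = 3.36e-09), a 1.59-fold level that did not reach the cut-off of 1. Because a ratio of 2 genes within a library does not depend on the scaling between libraries, the balance of the coactivators was also compared. WWTR1 had 1.21, 1.16 and 1.27 counts for each count of YAP1 in siEF, and 0.910, 0.924 and 0.907 in siNEG. TAZ transcripts thus gained on YAP transcripts in each siEF library. The log2 ratio was 0.28 ± 0.0637 in siEF and -0.13 ± 0.0143 in siNEG (SD, n = 3 each), a difference of 0.41 (exact permutation test, two-sided, p = 0.1). It was 0.01 ± 0.039 in Media, apart from both other groups. With 3 libraries against 3, 0.1 is the smallest p possible, and it stayed 0.1 after adjustment over the 3 comparisons of this ratio.

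Among the TEAD factors, TEAD1 and TEAD3 rose, TEAD2 rose less and TEAD4 fell. TEAD1 (ENSG00000187079.17, chromosome 11 from 12674421 to 12944737) was at 272, 258 and 279 CPM in siEF and at 122, 132 and 125 CPM in siNEG. The siEF libraries clearly exceeded those of siNEG, with no overlap. The Log2FC was 1.09 (SE 0.06, 95% CI 0.97 to 1.22, adjusted P = 4.72e-11). TEAD3 (ENSG00000007866.21, chromosome 6 from 35473597 to 35497079), which is less abundant, was at 34.8, 38.1 and 36.5 CPM in siEF and at 16.9, 17.5 and 17.1 CPM in siNEG. Its libraries also fell into separate ranges. The Log2FC was 1.08 (SE 0.06, 95% CI 0.95 to 1.22, adjusted P = 1.06e-10).

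TEAD2 (ENSG00000074219.13, chromosome 19 from 49340595 to 49362457), the TEAD factor known from early embryos and neural tissue, was at 82.4, 80.6 and 79.8 CPM in siEF and at 62.3, 59.8 and 59.0 CPM in siNEG. The groups did not overlap, but the gap was narrower than for TEAD1 or TEAD3. The Log2FC was 0.42 (SE 0.06, adjusted P = 3.22e-06). TEAD4 (ENSG00000197905.9, chromosome 12 from 2959330 to 3040676), known for its role in the trophectoderm and in muscle, moved the other way. It was at 14.2, 18.2 and 15.5 CPM in siEF, from 392, 372 and 453 counts, and at 33.3, 36.5 and 33.2 CPM in siNEG, from 1053, 1240 and 1035 counts. Every siEF library was below every siNEG library. The Log2FC was -1.11 (SE 0.09, 95% CI -1.30 to -0.93, adjusted P = 4.81e-09), and the level in siEF was 46.2% of that in siNEG. The 95% CI of TEAD1, TEAD3 and TEAD4 reach inside a Log2FC of 1, so that a change of more than 1 in size was shown for none of the 3. In edgeR's test against that cut-off, the adjusted P was 0.083 for TEAD1, 0.127 for TEAD3 and 0.135 for TEAD4.

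The make-up of the TEAD transcripts therefore differed between the groups. To compare the 4 genes with each other, counts were divided by the length of the MANE Select transcript and given as a share of their sum. TEAD4 held 9.55%, 12.1% and 10.4% of the sum in siEF and 29.2%, 31.1% and 29.6% in siNEG. TEAD1 held 33.3%, 31.2% and 33.8% in siEF and 19.4%, 20.4% and 20.3% in siNEG. The TEAD4 share was thus far lower and the TEAD1 share far higher in all 3 siEF libraries. The means differed by -19.3 percentage points for TEAD4, 12.7 for TEAD1 and 5.39 for TEAD3 (exact permutation test, p = 0.1 each, the smallest possible, and 0.133 after adjustment over the 4 shares). TEAD2 held the largest share in both groups, 42.6% ± 0.969 in siEF and 41.4% ± 1.51 in siNEG (SD, n = 3, exact p = 0.4), with overlapping libraries. The sign of that TEAD2 difference turned with the length used, and without division by length the differences shrank to -10.4 points for TEAD4 and 1.84 for TEAD3, and stood at 13.9 for TEAD1. The sum of the 4 genes was 86.7 to 87.9 CPM per kb in the siEF libraries, 65.6 to 68.8 in siNEG and 76.5 to 81.2 in Media, so the groups did not overlap.

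**Figure D2:**
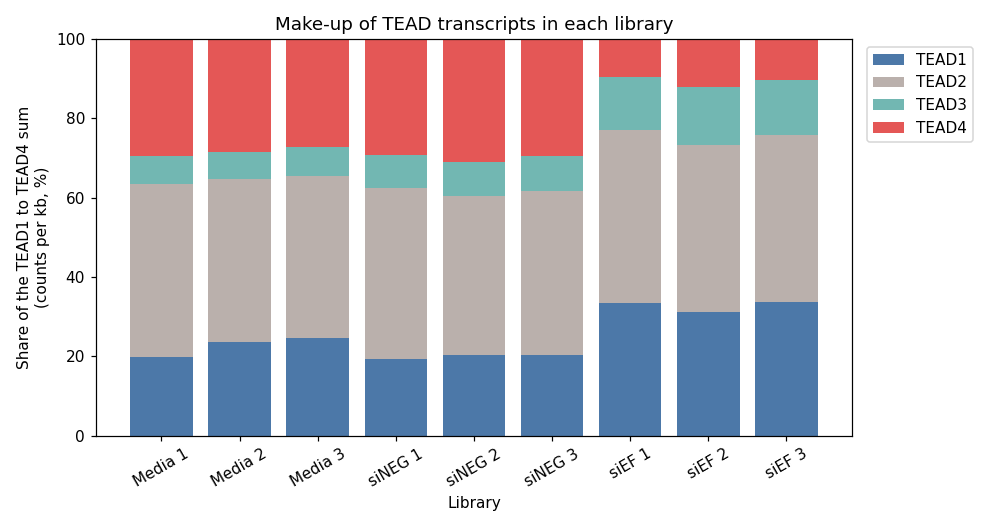
Share of TEAD1, TEAD2, TEAD3 and TEAD4 in their summed counts per kb of transcript, in percent, with 1 bar for each library. The TEAD4 share is 9.55% to 12.1% in the siEF libraries and 27.3% to 31.1% in the siNEG and Media libraries.

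The inhibitors of YAP among the 10 genes both rose. LATS2 (ENSG00000150457.9, chromosome 13 from 20973036 to 21061586), a kinase that phosphorylates YAP and TAZ, was at 23.7, 21.8 and 22.7 CPM in siEF and at 13.6, 14.3 and 17.1 CPM in siNEG. The third siNEG library was the highest of its group, yet below all 3 siEF libraries. The Log2FC was 0.61 (SE 0.08, adjusted P = 5.94e-06). AMOTL2 (ENSG00000114019.14, chromosome 3 from 134355347 to 134375479), an angiomotin that binds YAP and holds it at junctions, was at 123, 123 and 129 CPM in siEF and at 66.5, 67.1 and 73.8 CPM in siNEG. All siEF libraries were higher. The Log2FC was 0.86 (SE 0.06, adjusted P = 4.35e-10), short of the cut-off of 1.

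The targets ANKRD1 and AXL changed in opposite directions, and these were the largest changes in size of the 10 genes. ANKRD1 (ENSG00000148677.6, chromosome 10 from 90912096 to 90921087), whose promoter with 2 motif matches is printed above, encodes an ankyrin repeat protein of muscle sarcomere and nucleus. It had 1641, 1071 and 1876 counts in siEF and 453, 504 and 407 in siNEG, or 59.3, 52.5 and 64.3 CPM against 14.3, 14.9 and 13.0 CPM. The lowest siEF library was far above the highest siNEG library. The Log2FC was 2.06 (SE 0.08, 95% CI 1.89 to 2.23, adjusted P = 6.41e-13), or a 4.18-fold level. AXL (ENSG00000167601.12, chromosome 19 from 41219223 to 41261766), a receptor tyrosine kinase bound by GAS6, had 227, 169 and 227 counts in siEF and 623, 656 and 633 in siNEG, or 8.20, 8.28 and 7.78 CPM against 19.7, 19.3 and 20.3 CPM. All siEF libraries were lower, with little spread in either group. The Log2FC was -1.29 (SE 0.08, 95% CI -1.45 to -1.13, adjusted P = 1.38e-10), and the level was 40.9% of that in siNEG. In the test against a Log2FC of 1, ANKRD1 and AXL were the 2 of the 10 genes that passed, with an adjusted P of 7.83e-10 and 9.77e-04.

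Between siNEG and Media, which differ in the nonspecific siRNA and in any handling that went with it, 3 of the 10 genes changed. None was called at a Log2FC beyond 1 in siNEG against Media by edgeR's quasi-likelihood test or by DESeq2, at a background of 0.429% of all genes. At an unadjusted P under 0.05 there were 4, TEAD1, TEAD2, ANKRD1 and AXL, beside 30.3% of all genes. At an adjusted P under 0.01 the first 3 were lower in siNEG, 3 of 10 beside 9.79% of all genes in either direction. ANKRD1 was at 23.2, 22.1 and 23.9 CPM in Media, above all siNEG and below all siEF libraries (Log2FC of siNEG against Media -0.71, SE 0.08, adjusted P = 1.61e-05). TEAD1 was at 151, 175 and 178 CPM in Media, again between the siNEG and siEF libraries (Log2FC -0.41, SE 0.06, adjusted P = 1.30e-04). TEAD2 was at 77.03, 70.2 and 67.7 CPM in Media, and its Log2FC was -0.25 (SE 0.06, adjusted P = 0.00509). That TEAD2 call was lost when Media replicate 1 or 2, or any siNEG library, was left out, or when only the 6 libraries compared were fitted, 6 of 16 settings in all (adjusted P up to 0.0282). AXL was at 17.5, 16.5 and 17.4 CPM in Media, below all 3 siNEG libraries, and its Log2FC of 0.21 missed the threshold (adjusted P = 0.0491). For YAP1, WWTR1, TEAD3, TEAD4, LATS2 and AMOTL2 the adjusted P was between 0.188 and 0.837. The 95% CI of the Log2FC was -0.02 to 0.18 for YAP1 and -0.16 to 0.05 for WWTR1, so that any difference in the coactivators was small in this comparison. In Media, YAP1 was at 106, 115 and 117 CPM and WWTR1 at 109.6, 113 and 118 CPM. TEAD3 was at 16.9, 16.2 and 16.8 CPM and TEAD4 at 41.1, 38.3 and 35.7 CPM. The siNEG and Media libraries overlapped for YAP1, WWTR1, TEAD4, LATS2 and AMOTL2, while those of TEAD3 lay just apart. LATS2 was at 13.7, 13.8 and 14.1 CPM in Media, and AMOTL2 at 71.6, 67.9 and 64.6 CPM.

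Against Media, the same direction was found for each gene, with sizes that differed where siNEG and Media differed. These comparisons share the siEF libraries and are given side by side. The Log2FC of siEF was 1.35 against Media and 2.06 against siNEG for ANKRD1, and 0.68 against Media and 1.09 against siNEG for TEAD1. TEAD1 was therefore called against siNEG and not against Media. For TEAD3 it was 1.13 and 1.08, for TEAD4 -1.27 and -1.11, and for AXL -1.08 and -1.29, in the same order. WWTR1 gave 0.61 and 0.66, LATS2 0.71 and 0.61, AMOTL2 0.88 and 0.86, and YAP1 0.34 and 0.25. TEAD2 gave 0.18 and 0.42, and its call against Media (adjusted P = 0.00917) was lost in 12 of 16 alternative settings. Against Media, ANKRD1 and TEAD3 were called higher and TEAD4 and AXL lower, 4 of 10 beside 29.9% of all genes, and all 10 had an adjusted P under 0.01, as did 65.9% of all genes.

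**Figure D3:**
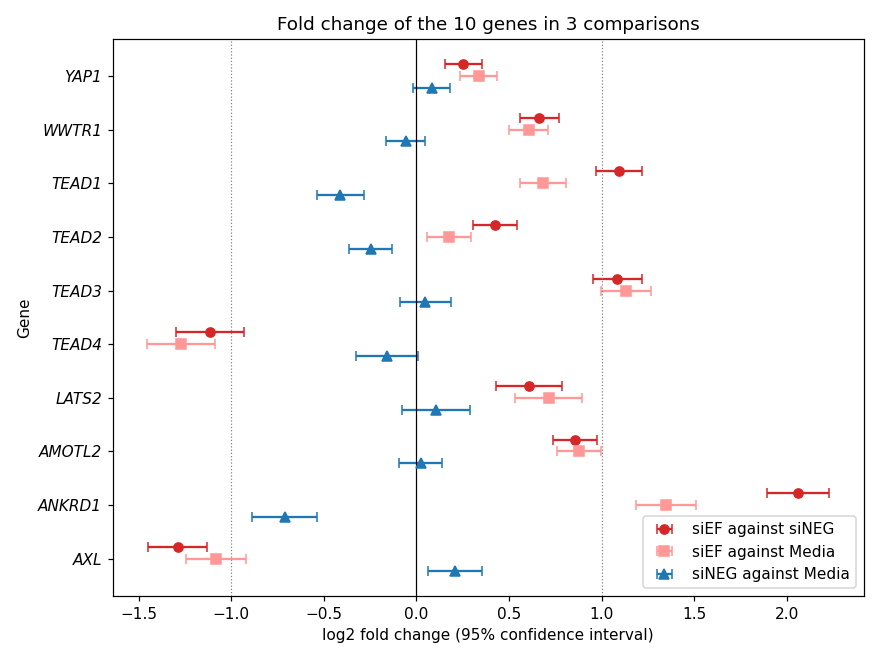
Log2FC of the 10 genes with 95% CI in siEF against siNEG (circles), siEF against Media (squares) and siNEG against Media (triangles), with dotted lines at the cut-off of 1 in either direction. ANKRD1 reaches 2.06 in siEF against siNEG, and its interval in siNEG against Media lies below 0, as do those of TEAD1 and TEAD2.

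Levels of different genes were compared per kb of MANE Select transcript. In siNEG, TEAD2 was highest at 27.8 CPM per kb, followed by YAP1 at 22.1, WWTR1 at 21.7 and TEAD4 at 20.1. AMOTL2 came next at 14.2 and TEAD1 at 13.4, then ANKRD1 at 7.86, TEAD3 at 5.76, AXL at 4.19 and LATS2 at 2.697. YAP1 and WWTR1, WWTR1 and TEAD4, and AMOTL2 and TEAD1 could not be ordered, since their libraries overlapped. In siEF, TEAD2 was still first at 37.2 CPM per kb, and the next were WWTR1 at 34.3, ANKRD1 at 32.8 and TEAD1 at 28.6. YAP1 at 26.4 and AMOTL2 at 25.7 overlapped, as did WWTR1 with ANKRD1 and ANKRD1 with TEAD1. TEAD3 followed at 12.2, then TEAD4 at 9.34, LATS2 at 4.10 and AXL at 1.71. TEAD4 thus went from above TEAD1 and TEAD3 in siNEG to below both in siEF, and AXL from above to below LATS2. In Media the order was TEAD2 at 32.95, WWTR1 at 22.6, TEAD4 at 22.4, YAP1 at 20.9 and TEAD1 at 17.8, with AMOTL2 at 14.0, ANKRD1 at 12.9, TEAD3 at 5.57, AXL at 3.63 and LATS2 at 2.504 CPM per kb. There, the libraries of WWTR1 and TEAD4, TEAD4 and YAP1, and AMOTL2 and ANKRD1 overlapped. The order depends on the length used. With the merged exons of all transcripts, an alternative chosen after seeing the data, ANKRD1 was first in siEF at 32.8 CPM per kb, TEAD2 was at 27.2 and WWTR1 at 20.7. The changes of place of TEAD4 and AXL were found with this length too.

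Other genes of the pathway were followed from lists written from general knowledge. The target list is a published signature of 22 YAP and TAZ targets that includes LATS2, AMOTL2, ANKRD1 and AXL, and 21 of the 22 were tested. In siEF against siNEG, 16 rose and 2 fell at an adjusted P under 0.01, and 3 did not pass, or 76.2% higher and 9.52% lower beside 33.6% and 31.7% of all genes. With the Log2FC cut-off, 10 (47.6%) were called higher and 1 (4.76%), AXL, lower, beside 17.1% and 11.7% of all genes. DOCK5, named after its values were seen, is among the 10 but had only 23, 23 and 25 counts in siEF and 4, 7 and 1 in siNEG, and 9 were called higher where at least 10 counts were required in every library. Over the 21 genes, the median Log2FC was 0.86 against 0.05 over all genes. Without the 4 genes already described, 13 of 17 rose, 1 fell and 3 did not pass, with a median of 1.18. IGFBP3, a secreted binder of insulin-like growth factors, went from 47.0 ± 0.131 CPM in siNEG to 2427 ± 27.9 CPM in siEF (SD, n = 3 each, Log2FC 5.69, adjusted P = 1.77e-19). CCDC80, a secreted matrix protein, went from 3.32 ± 0.536 to 31.6 ± 3.78 CPM (Log2FC 3.25, adjusted P = 7.14e-13), and the RNA-binding protein RBMS3 from 7.31 ± 0.381 to 40.8 ± 2.99 CPM (Log2FC 2.48, adjusted P = 4.13e-13). The matricellular proteins CCN1 and CCN2 are the targets used most often. CCN1 was at 54.9 ± 2.24 CPM in siNEG and 94.1 ± 4.48 in siEF (Log2FC 0.78, adjusted P = 9.63e-10). CCN2 was at 103 ± 3.98 CPM in siNEG and 155 ± 3.22 in siEF (Log2FC 0.59, adjusted P = 3.12e-09). Both rose by less than the cut-off, and both were lower in siNEG than in Media, as ANKRD1 was (Log2FC -0.25 for CCN1, adjusted P = 0.00382, and -0.30 for CCN2, adjusted P = 1.55e-04). Over the whole list, 2 genes (9.52%) were higher and 4 (19.0%) lower in siNEG than in Media at an adjusted P under 0.01, beside 9.79% of all genes in either direction, and 15 did not pass.

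**Figure D4:**
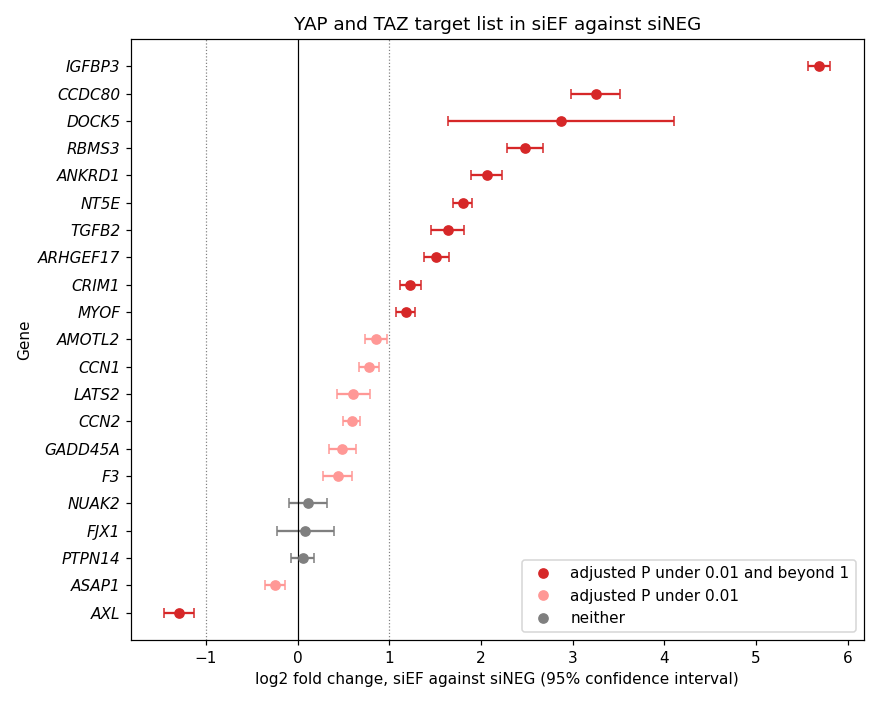
Log2FC in siEF against siNEG with 95% CI for the 21 tested genes of the YAP and TAZ target list, coloured by whether the gene passed an adjusted P of 0.01 alone, also the Log2FC cut-off of 1 (dotted lines), or neither. IGFBP3 lies highest at 5.69, AXL lowest at -1.29, and 16 genes rose at an adjusted P under 0.01.

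The kinases and adaptors upstream changed about as often as all genes did. Of 22, LATS2 included, 9 (40.9%) rose, 7 (31.8%) fell and 6 did not pass, and the median Log2FC of 0.04 was close to that of all genes. The 4 called higher, 18.2% beside 17.1% of all genes, were FRMD6, a FERM domain adaptor (14.4 ± 1.32 CPM in siNEG and 82.8 ± 1.79 in siEF, Log2FC 2.52, adjusted P = 9.76e-14), WWC3 (Log2FC 1.44, adjusted P = 1.94e-12), the kinase MAP4K5 (Log2FC 1.33, adjusted P = 8.86e-12) and the kinase TNIK. TNIK had 132, 99 and 186 counts in siEF but only 1, 7 and 1 in siNEG and 2, 3 and 3 in Media, too few for a stable fold, and 3 were called higher where at least 10 counts were required in every library. The single gene called lower, 4.55% beside 11.7% of all genes, was LATS1, the partner kinase of LATS2, named after its values were seen. LATS1 was at 56.5 ± 2.41 CPM in siNEG and 27.1 ± 1.60 in siEF (Log2FC -1.06, SE 0.07, adjusted P = 5.43e-10). The LATS kinases thus moved apart, LATS1 down and LATS2 up. Of 14 genes of STRIPAK, the phosphatase complex that acts on MST kinases, 8 (57.1%) fell, 1 (7.14%) rose and 5 did not pass, beside 31.7% and 33.6% of all genes, with a median of -0.35. Its catalytic subunit PPP2CA was the only one called, 7.14% beside 11.7% of all genes called lower, at 234 ± 5.27 CPM in siNEG and 116 ± 1.76 in siEF (Log2FC -1.01, adjusted P = 8.82e-13). These 2 calls, LATS1 and PPP2CA, lie so near the cut-off that each was lost under upper quartile scaling.

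Of 21 junction and polarity genes, AMOTL2 included, 18 were tested, 11 (61.1%) rose, 4 (22.2%) fell and 3 did not pass, beside 33.6% and 31.7% of all genes, with a median of 0.50. The 3 called higher were 16.7% of the list and the 1 called lower 5.56%, beside 17.1% and 11.7% of all genes, and the calls lower came to 2 or 3 in most other settings, with 3 when siNEG replicate 1 was left out. The protocadherin DCHS1 (16.5 ± 0.988 CPM in siNEG, 58.5 ± 3.86 in siEF, Log2FC 1.83, adjusted P = 8.51e-13), the angiomotin AMOT (137 ± 7.44 and 297 ± 9.26 CPM, Log2FC 1.12, adjusted P = 4.62e-12) and the scaffold PATJ (17.4 ± 0.429 and 37.7 ± 1.98 CPM, Log2FC 1.11, adjusted P = 8.13e-10) were called higher. CRB2, a Crumbs polarity protein, was called lower at 5.76 ± 0.0607 CPM in siNEG and 1.44 ± 0.276 in siEF (Log2FC -2.01, adjusted P = 1.08e-07). Of the 10 TEAD factors and cofactors, 8 were tested, and 6 of these 8 are the genes described above. At an adjusted P under 0.01, 6 (75.0%) rose, 1 (12.5%) fell and 1 did not pass, beside 33.6% and 31.7% of all genes. With the Log2FC cut-off, 3 (37.5%) were called higher and 1 (12.5%) lower, beside 17.1% and 11.7% of all genes. VGLL4, which competes with YAP for TEAD factors, rose from 43.99 ± 2.31 CPM in siNEG to 133 ± 6.02 in siEF (Log2FC 1.60, adjusted P = 3.10e-13), a larger Log2FC than that of any TEAD gene. VGLL4 was also higher in siNEG than in Media, where it was at 34.6 ± 1.66 CPM (Log2FC 0.35, adjusted P = 7.63e-04).

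The receptor AXL was set beside its relatives and the ligands of this family. GAS6, the AXL ligand, had 34, 29 and 40 counts in siEF, 5, 1 and 9 in siNEG and 14, 12 and 7 in Media. It was thus near the limit of detection in every group, with too few counts for a stable fold. In edgeR's quasi-likelihood test GAS6 was called higher in siEF against siNEG (Log2FC 3.07, adjusted P = 3.49e-05) and against Media (Log2FC 1.87, adjusted P = 0.00124). PROS1, a ligand of the related receptors TYRO3 and MERTK, rose by a Log2FC of 0.45 (adjusted P = 3.48e-04). Both of these receptors, TYRO3 (Log2FC 0.33, adjusted P = 1.01e-04) and MERTK (Log2FC 0.36, adjusted P = 1.41e-05), also rose. MERTK was already higher in siNEG than in Media, by a larger Log2FC of 0.42 (edgeR, adjusted P = 4.37e-05).

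The genes whose pattern over the 9 libraries was most like that of each coactivator were ranked by Pearson's r of log2 CPM among 9539 genes with a mean of at least 10 CPM. For YAP1 they were WASL (r = 0.998), SECISBP2L (r = 0.997) and ATXN3 (r = 0.995), and for WWTR1 they were DDAH1 (r = 0.998), UGCG (r = 0.997) and FNBP1L (r = 0.997). The gene ranked first for YAP1, WASL, was at 117 CPM in siEF, 85.5 in siNEG and 75.9 in Media. The gene ranked first for WWTR1, DDAH1, was at 126 CPM in siEF, 71.9 in siNEG and 77.4 in Media. These values are a description of the same 9 libraries, which fall into 3 groups.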

How the data were processed

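Poly(A) RNA of TC32 cells was sequenced in 9 libraries, which the labels assign to 3 groups of 3. According to the methods, the authors mapped reads to hg38 with STAR 2.7.1a, and they deposited expected counts per gene estimated with RSEM 1.3.1, not scaled for depth. The submitters' processing notes also name cutadapt 2.10, FastQC and DESeq2 1.32.0. The strand setting and annotation release are not given in the sources used here, and genes that overlap exons of the 10 had at most 8 counts in any library. The labels name a small RNA library kit.

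Counts were rounded, filtered with filterByExpr, scaled by TMM and tested with edgeR 4.0.16 (R 4.3.3) in a single quasi-likelihood fit over the 9 libraries, with Benjamini-Hochberg adjustment over 16093 genes. Calls needed a Log2FC beyond 1 in either direction with an adjusted P below 0.01, which are the thresholds of the study. SE is the size of the Log2FC divided by the square root of F. No libraries were identical, and replicates differed by more than sampling noise (chi-square per degree of freedom 3.57 to 23.2). The labels and methods call the replicates biological, and separate dishes are stated only for other assays, so P values measure the spread between these libraries. Ratios and shares were compared by exact permutation tests, two-sided. Positions and MANE Select lengths are from GENCODE 44.

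The 10 genes and the lists were chosen with earlier results of these data known. Beyond the 10 and the cell markers, FLI1, NR0B1, PHLDA1, CCN1, CCN2 and the AXL family were named. Per list, at most the 4 called genes with the largest change and at least 1 CPM were named, and for YAP1 and WWTR1 the 3 genes most alike. PALS1 was matched through its older symbol, MPP5. The alternatives were DESeq2 1.42.0, other scalings and filters, 6 libraries, the replicate number as a block, a test against the cut-off, and each library left out.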

Additional observations from a re-analysis of the deposited data

How the results depend on the processing

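In siEF against siNEG, the 10 genes kept direction and side of the adjusted P threshold in all 160 alternative values (16 settings), and 5 were called in each setting but the test against the cut-off, where 2 were. With the replicate block 5 were called, and it changed no call of the 10 genes. Same-numbered libraries of siEF and siNEG correlated at 0.03, -0.05 and -0.09, so the numbers were not taken as pairs. Against Media, AXL at -0.99 missed the cut-off under upper quartile scaling, which left 3 called. For siNEG against Media, AMOTL2 at 0.02 turned to -0.014 without Media replicate 3 and -0.028 without siNEG replicate 3 (-0.028 to 0.063 over the libraries left out).

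Calls lower in the junction list were 1, but 2 with DESeq2, RLE scaling or only 6 libraries, 3 without a filter and 1 to 3 with a library left out (3 without siNEG replicate 1), and PALS1, chosen after its values were seen, lay at -0.9997, just inside the cut-off. Upper quartile scaling left 0 lower calls among kinases and 0 in STRIPAK, as did a minimum of 10 counts for STRIPAK. This scaling moved the median Log2FC of all genes from 0.05 to 0.13.

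The log2 ratio of WWTR1 to YAP1 differed by 0.27 with Media as control and by 0.38 to 0.44 with a library left out. With counts not divided by length, the TEAD share differences were 13.9 (TEAD1), -5.27 (TEAD2, reversed), 1.84 (TEAD3) and -10.4 (TEAD4) percentage points. With Media they were 10.1 for TEAD1, 6.90 for TEAD3 and -17.8 for TEAD4. Merged exon length, chosen after seeing the data, gave -0.314 for TEAD2 and 6.09 for TEAD3. With a library left out they were 12.2 to 13.5, 0.41 to 1.91, 5.12 to 5.65 and -20.0 to -18.7 for TEAD1, TEAD2, TEAD3 and TEAD4.

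GAS6, TNIK and DOCK5 had under 10 counts in each siNEG library, which limits their folds.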
